A study of Mus musculus with 8 samples.

Results

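The genes described here make and sense prostacyclin, thromboxane A2 and prostaglandin E2 (PGE2) in the mouse thoracic aorta: the cyclooxygenase genes Ptgs1 and Ptgs2, the synthase genes Ptgis, Tbxas1, Ptges and Ptges3, and the receptor genes Tbxa2r, Ptgir, Ptger3 and Ptger4. All non-control probes whose identifier is a RefSeq transcript of 1 of these 10 genes were taken, which gave 15 of the 55681 probes on the array. Of the 10 genes, 7 had 1 probe and 3 had more: Ptges, Ptger3 and Ptges3. Aortas of 4 Fto -/- samples were compared with those of 4 Fto +/+ samples. Per the labels, all mice were male and of a C57BL6J/NMRI background, and their age, the Fto allele and any pooling of animals are not stated there. Fto is an enzyme that demethylates RNA, and the labels name the Fto -/- samples by genotype only.

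Cyclooxygenases turn arachidonic acid, released from membranes by phospholipases, into the short-lived intermediate prostaglandin H2. Separate synthases then make prostacyclin, thromboxane A2 or PGE2 from it, and each product acts on its own G protein-coupled receptors. In arteries prostacyclin relaxes smooth muscle and restrains platelets, thromboxane A2 constricts the vessel and activates platelets, and PGE2 does either, depending on the receptor.

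Each sample was read on 1 single-colour array, and a level is the log2 of the background-subtracted intensity over the 75th percentile of that array, which was 294.9 to 374.4 on Fto -/- arrays and 320.2 to 415.6 on Fto +/+ arrays. Fto, from its only probe, was at levels of -2.53, -2.19, -2.56 and -2.77 in the Fto -/- samples, against 0.60, 0.86, 0.47 and 0.35 in the Fto +/+ samples. The log2 difference was -3.08 ± 0.15 (SE, limma adjusted p = 0.000403), an 8.47-fold higher level in Fto +/+. In all 8 samples the description field gives the opposite genotype to the title; groups were set by title and genotype label, and Fto followed these. The probe was still well above background on all 4 Fto -/- arrays. No source used here says how the Fto allele was altered, or whether the probe lies in an altered part. Against the labelled sex, both Xist probes were well above background on all 8 arrays, and of the Ddx3y, Kdm5d, Eif2s3y, Uty and Zfy1 probes, all Y-linked, 1 Uty probe was so on 1 array. Markers of the vessel were present: all 8 contractile smooth muscle and all 10 endothelial marker genes were measured. The arrays also differed in markers of fat, T cells and macrophages, whose values are given beside some of the genes below. A wider share of probes was well above background in Fto -/- arrays, at 45.56% to 47.73%, against 44.47% to 45.2% in Fto +/+ arrays (exact two-sided permutation p = 0.0286, the smallest this design can give).

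None of the 15 probes passed a limma adjusted p of 0.05, and 3 had an unadjusted p under 0.05. Over all 25288 tested probes 1.66% passed, 0.842% higher and 0.815% lower in Fto -/-, and 19.0% had an unadjusted p under 0.05. The thromboxane receptor gene Tbxa2r was the only member whose genotypes did not overlap, with a lower signal in every Fto -/- sample, and its adjusted p was 0.061. Lack of overlap was found in 12.1% of all tested probes, with 7.36% lower and 4.75% higher in every Fto -/- sample. The median log2 difference over the 15 probes was 0.11, against -0.015 over all tested probes, and the median size of the difference was 0.19 against 0.17. Over all probes 213 were higher and 206 lower, and with the 75th percentile taken over probes measured on all 8 arrays 273 were higher and 153 lower. All 15 probes entered the test, as each was well above background on at least 4 arrays. Of these, 12 were so on all 8. None was saturated. Fewer cells of a type and less RNA per cell cannot be told apart in these whole-tissue samples, and levels of different probes are not comparable with each other.

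**Figure D1:**
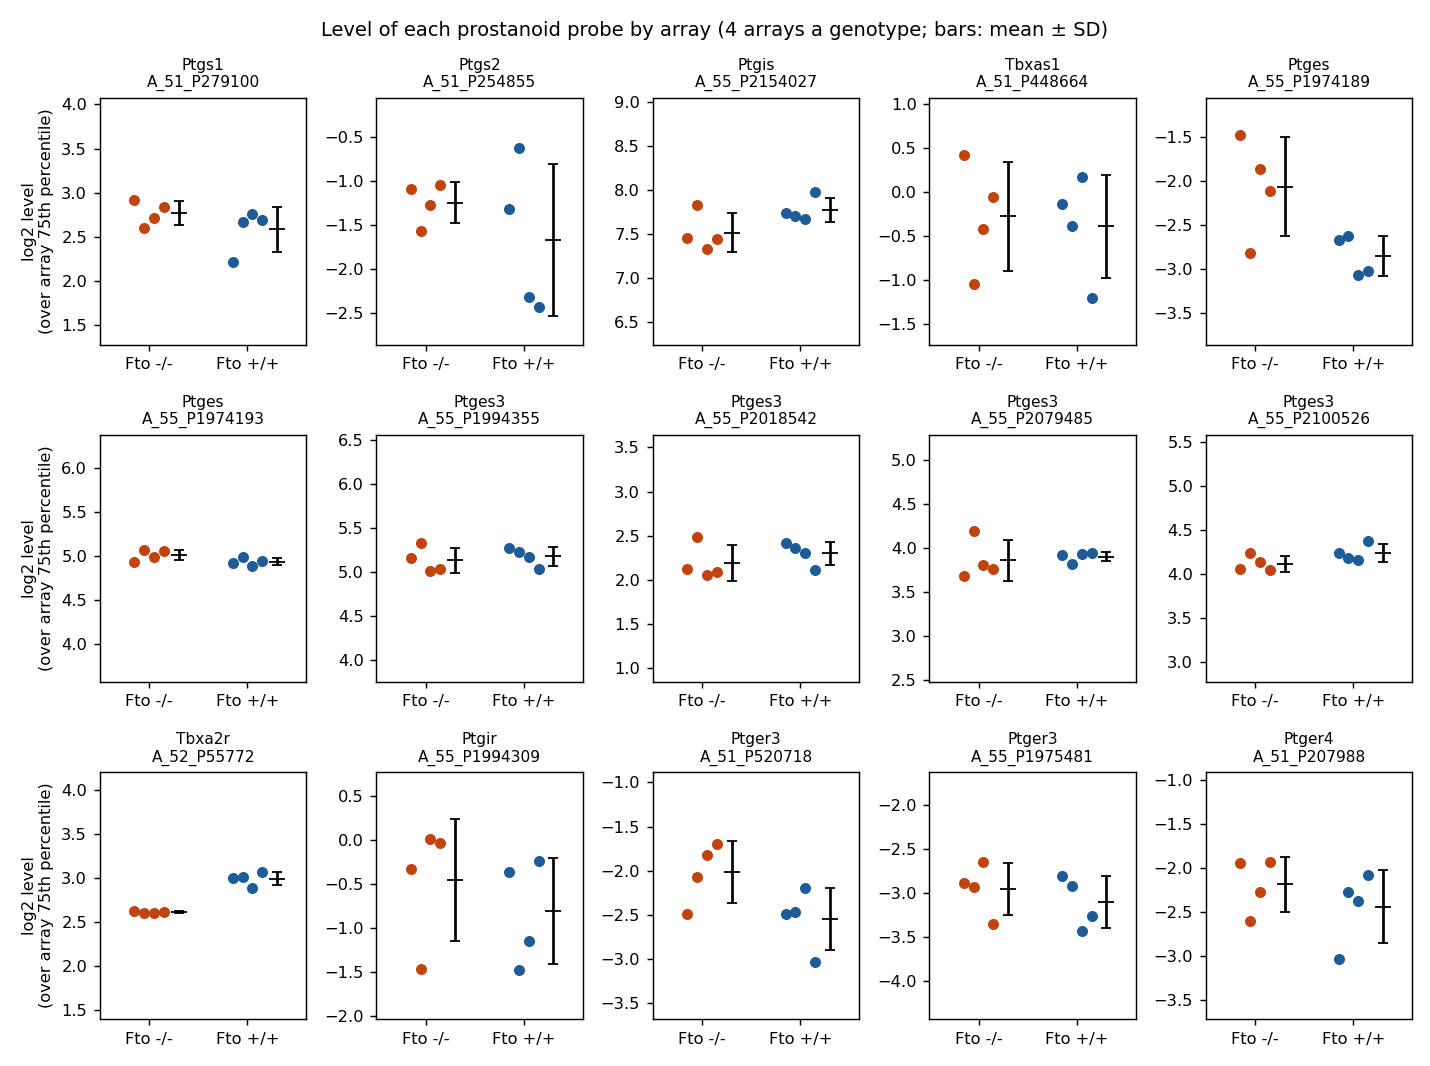
Level of each of the 15 probes on each array (log2 of intensity over the array's 75th percentile), Fto -/- in orange and Fto +/+ in blue, with mean ± SD of 4 arrays beside the points and the same span of the vertical axis in every panel. Tbxa2r is the only panel in which the genotypes do not overlap, and Ptgs2, Tbxas1 and Ptgir spread widely within a genotype.

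The cyclooxygenase genes differed in how much they varied from sample to sample, mainly in Fto +/+ samples. Ptgs1, the constitutive enzyme, ran over a 1.64-fold range across the 8 arrays and Ptgs2, the inducible one, over a 3.52-fold range. Within Fto -/- samples the ranges were 1.25-fold and 1.43-fold, and within Fto +/+ samples 1.47-fold and 3.52-fold, in that order. The Ptgs2 probe was also the dimmer, at intensities of 59.2 to 270 against 1730 to 2833, and the part of brightness was not tested. The 250 bases upstream of both genes are shown to set this pair side by side (RefSeq, build GRCm38.p6, plus strand). The Ptgs2 window is chr1:150099781-150100030 and the Ptgs1 window is chr2:36230176-36230425. Capitals mark matches to a C/EBP palindrome (TTGCGCAA) or a GC box (GGGCGG or its reverse complement CCGCCC), searched on both strands.
Ptgs2: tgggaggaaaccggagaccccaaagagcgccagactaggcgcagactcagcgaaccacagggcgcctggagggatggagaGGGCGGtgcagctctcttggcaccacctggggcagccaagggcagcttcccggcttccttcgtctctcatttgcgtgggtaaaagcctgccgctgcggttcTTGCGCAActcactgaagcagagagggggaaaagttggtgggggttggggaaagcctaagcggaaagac
Ptgs1: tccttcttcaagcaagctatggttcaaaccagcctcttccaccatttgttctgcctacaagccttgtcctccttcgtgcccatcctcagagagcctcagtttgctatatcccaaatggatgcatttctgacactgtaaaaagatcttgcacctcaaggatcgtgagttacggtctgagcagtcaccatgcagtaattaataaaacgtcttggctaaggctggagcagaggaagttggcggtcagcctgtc
The Ptgs2 window holds 1 palindrome, 69 bases before the annotated start, and 1 GC box, 170 bases before it. The Ptgs1 window holds neither. The palindrome was found in 0.164% and the GC box in 32.7% of the 32851 windows of this length in the table. Neither window holds a CRE half-site (CGTCA or TGACG, in 17.8% of windows) or the E-box CACGTG (in 6.02%). Only these 250 bases were searched, so sites past the annotated start, or further upstream, are not covered. These letters are a description of the windows, and the arrays do not measure what binds there.

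Ptgs1 (A_51_P279100, NM_008969) was at 2.92, 2.60, 2.71 and 2.83 in Fto -/- and at 2.21, 2.67, 2.76 and 2.69 in Fto +/+ samples. The genotypes overlapped, and the low value of Fto +/+ replicate 1 stood apart. The log2 difference was 0.19 ± 0.14 (SE), with a 95% confidence interval from -0.14 to 0.51 and a limma adjusted p of 0.507. Without that sample the difference was 0.06, with the T cell level in the fit 0.11, and with slide row as a block 0.33 (limma adjusted p = 0.373).

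Ptgs2 (A_51_P254855, NM_011198) was at -1.09, -1.56, -1.28 and -1.05 in Fto -/- and at -1.32, -0.62, -2.31 and -2.44 in Fto +/+ samples. The 4 Fto -/- values lay inside the range of the Fto +/+ values, with SDs of 0.23 and 0.86 (n = 4 each). The log2 difference was 0.43 ± 0.38 (SE, 95% confidence interval -0.44 to 1.29, limma adjusted p = 0.571), so that anything from a 0.738-fold to a 2.45-fold level in Fto -/- samples lay within it. It was 0.78 without Fto +/+ replicate 2 and 0.17 without Fto +/+ replicate 4.

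This probe is printed 10 times on each array, which gives the spread of spots within an array. Intensity averaged 176, 108, 122 and 162 on the Fto -/- arrays and 151, 270, 76.7 and 59.2 on the Fto +/+ arrays. The coefficient of variation over the repeated spots was 7.5% to 12.8% on Fto -/- arrays and 8.4% to 22.4% on Fto +/+ arrays. In Fto +/+ samples the lowest spot of replicate 2, at 232, was brighter than the highest spot of replicate 3, at 103, and of replicate 4, at 75.8. Repeated spots share 1 labelling and hybridisation, so they measure only the error within an array.

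**Figure D2:**
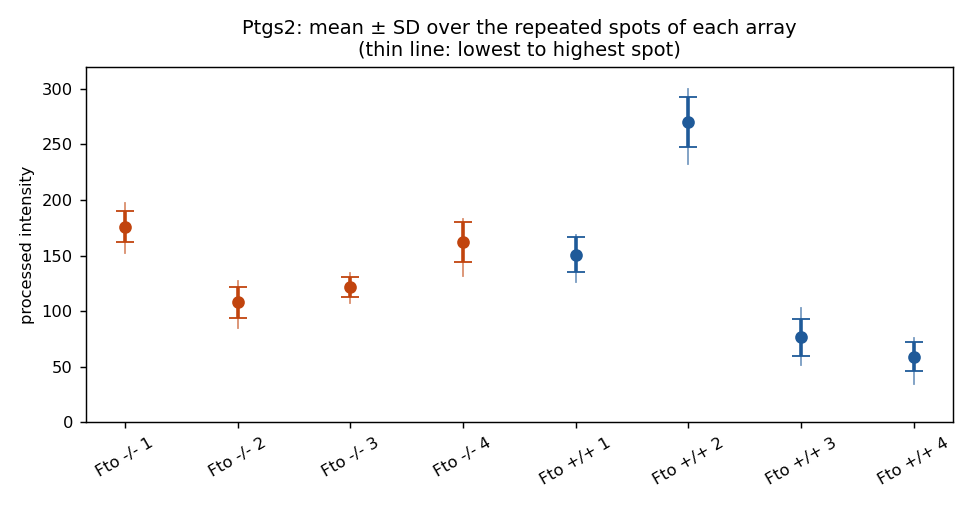
Processed intensity of the Ptgs2 probe on each array, Fto -/- in orange and Fto +/+ in blue, as the mean ± SD of 9 or 10 repeated spots with a thin line from the lowest to the highest spot. Fto +/+ replicate 2, at 270, and replicates 3 and 4, at 76.7 and 59.2, lie on either side of all 4 Fto -/- arrays.

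Markers of T cells differed between the same samples. The mean level of the 8 measured T cell genes, each centred over the arrays, was 1.21, -1.21, 1.79 and 1.09 in Fto -/- and -1.58, 1.59, -1.69 and -1.20 in Fto +/+ samples. The summed signal of the list was 4.47 to 12.8 times the 75th percentile in Fto -/- and 3.93 to 10.7 times in Fto +/+ arrays, and 0 of the 8 genes passed. Fto +/+ replicate 2 was high for both Ptgs2 and these genes. With that T cell level added to the fit the Ptgs2 difference was -0.016 (limma adjusted p = 0.984), and with the white adipocyte level it was 0.76 (limma adjusted p = 0.297). With normexp background correction it was 0.24. The part of T cells in the Ptgs2 signal was not tested beyond that.

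For the synthase genes of prostacyclin and thromboxane no genotype difference passed the threshold, and 4 samples a genotype do not show that there was none. Ptgis (A_55_P2154027, NM_008968), the prostacyclin synthase, was at 7.46, 7.83, 7.33 and 7.44 in Fto -/- and at 7.73, 7.71, 7.67 and 7.97 in Fto +/+ samples. Its intensities were 47552 to 72692 on Fto -/- and 77836 to 86921 on Fto +/+ arrays, below saturation, and 3 of the 4 Fto -/- samples lay below all Fto +/+ samples. Fto -/- replicate 2 was the exception. The log2 difference was -0.26 ± 0.13 (SE, 95% confidence interval -0.55 to 0.04, limma adjusted p = 0.325), and -0.36 without that sample. With the T cell level in the fit it was -0.14 (limma adjusted p = 0.593). The smooth muscle markers given below with Tbxa2r were likewise highest in Fto -/- replicate 2 within its genotype and in Fto +/+ replicate 4 over all samples, and their part was not tested.

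Tbxas1 (A_51_P448664, NM_011539), the thromboxane synthase, was at 0.42, -1.05, -0.42 and -0.07 in Fto -/- and at -0.14, -0.39, 0.17 and -1.21 in Fto +/+ samples. The genotypes overlapped over almost their whole range, with a log2 difference of 0.11 ± 0.36 (SE, 95% confidence interval -0.71 to 0.94, limma adjusted p = 0.891). In both genotypes 1 sample was low, Fto -/- replicate 2 and Fto +/+ replicate 4.

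Tbxas1 is known from macrophages and platelets. The mean level of the 8 macrophage markers, all measured, was 0.78, -0.37, 0.11 and 0.27 in Fto -/- and 0.18, 0.03, 0.32 and -1.32 in Fto +/+ samples. The same arrays were highest (Fto -/- replicate 1, then Fto +/+ replicate 3) and lowest (Fto +/+ replicate 4, then Fto -/- replicate 2) for Tbxas1 and for these markers. The summed macrophage signal was 36.2 to 80.7 times the 75th percentile in Fto -/- and 22.5 to 59.8 times in Fto +/+ arrays, and 0 of the 8 genes passed. With the macrophage level as a covariate, an alternative chosen after seeing the data, the Tbxas1 difference was -0.24 ± 0.15 (SE, limma adjusted p = 0.333), with less than the 0.36 SE of the plain comparison. The platelet list was at 0.80, -0.51, 0.22 and 0.07 in Fto -/- and 0.13, -0.04, 0.55 and -1.22 in Fto +/+ samples, with the same highest and lowest arrays in each genotype, and its part was not tested. Of the 8 platelet markers only Pf4 was measured on enough arrays to be tested, and for Itga2b, Gp9 and Gp6 0 of 8 arrays were well above background.

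**Figure D3:**
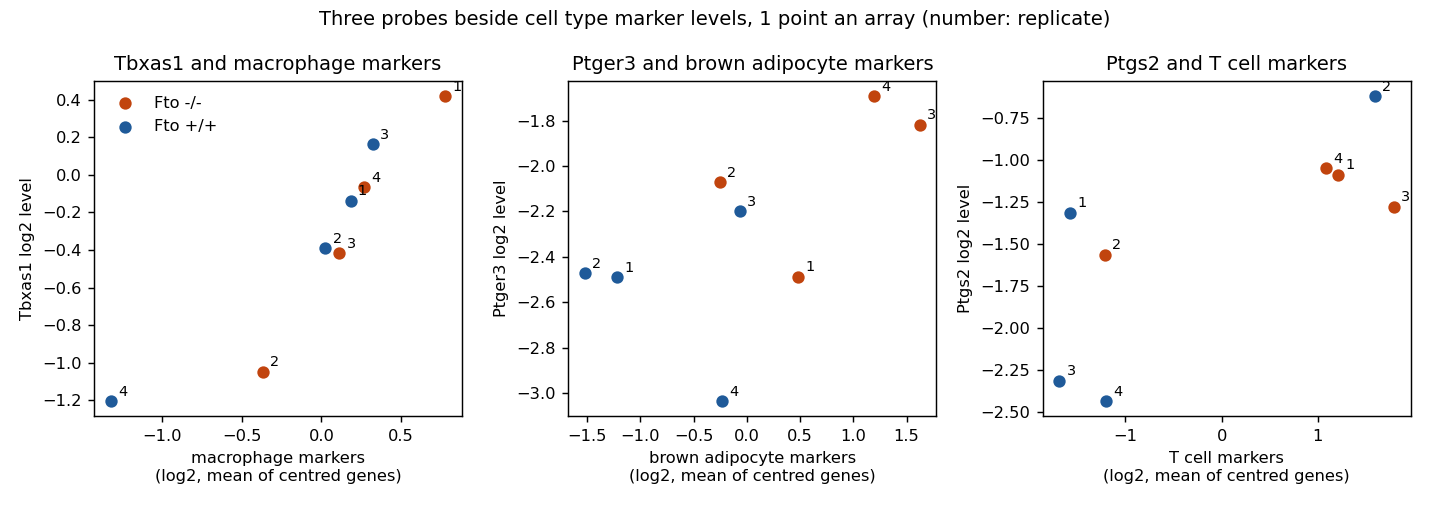
Level of 3 probes on each array (vertical, log2 of intensity over the 75th percentile) against the mean centred level of a cell type marker list (horizontal, log2), Fto -/- in orange and Fto +/+ in blue, with the replicate number beside each of the 8 points. Tbxas1 runs with the macrophage markers in both genotypes, from Fto +/+ replicate 4, low on both, to Fto -/- replicate 1, high on both; Ptger3 and Ptgs2 are more scattered.

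For PGE2, Ptges encodes the membrane-bound synthase and Ptges3 a cytosolic synthase that is also the chaperone partner p23 of Hsp90. The 2 Ptges probes, both assigned to NM_022415, did not give the same picture. The bright probe (A_55_P1974193) was at 4.935, 5.065, 4.995 and 5.054 in Fto -/- and at 4.920, 4.989, 4.893 and 4.945 in Fto +/+ samples. These values spanned a 1.13-fold range over all 8 arrays, and the log2 difference was 0.08 ± 0.08 (SE, 95% confidence interval -0.11 to 0.26, limma adjusted p = 0.644). The dim probe (A_55_P1974189) was at -1.48, -2.81, -1.87 and -2.11 in Fto -/- and at -2.68, -2.63, -3.07 and -3.02 in Fto +/+ samples, of which 2 measured it well above background. It spanned a 3.03-fold range, and 3 of 4 Fto -/- samples lay above all Fto +/+ samples. Its log2 difference was 0.78 ± 0.26 (SE, 95% confidence interval 0.18 to 1.39, limma adjusted p = 0.167), and 0.36 with normexp background correction, chosen after seeing the data. With the T cell level in the fit it was 0.49 (limma adjusted p = 0.331), and Fto -/- replicate 2 was the lowest of its genotype for both this probe and the T cell markers.

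The 4 Ptges3 probes, all assigned to NM_019766, gave log2 differences between -0.12 and -0.04, each with a limma adjusted p of at least 0.508. Their levels overlapped between genotypes in all 4 cases. Across the 8 arrays the range was 1.24-fold to 1.43-fold. Their 95% confidence intervals together ran from -0.40 to 0.24, or from a 0.759-fold to a 1.18-fold level in Fto -/- samples. A Ptges3 pseudogene is annotated in the mouse, and probes may read both.

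Tbxa2r (A_52_P55772, NM_009325) encodes the thromboxane receptor, through which thromboxane contracts vascular smooth muscle. It was at 2.62, 2.59, 2.60 and 2.61 in Fto -/- and at 3.00, 3.01, 2.88 and 3.06 in Fto +/+ samples. Every Fto -/- sample lay below every Fto +/+ sample, and the 4 Fto -/- values differed by at most 1.02-fold. The log2 difference was -0.38 ± 0.08 (SE), a 0.769-fold level in Fto -/- samples with a 95% confidence interval of 0.676 to 0.874. The limma adjusted p was 0.061. That it lay lower in every Fto -/- sample was shared with 7.36% of all tested probes.

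The SD of Tbxa2r within genotypes was 0.01 in Fto -/- and 0.08 in Fto +/+ samples, against a median of 0.21 (pooled over the genotypes) for all tested probes. An Fto -/- SD as low occurred in 0.0593% of tested probes, and a pooled SD as low (0.054) in 0.732%. The bright Ptges probe had a pooled SD of 0.051. The limma fit draws each probe's variance towards that of all probes, and used an SD of 0.115 for this one where the samples themselves gave 0.054. The difference lay between -0.415 and -0.355 when any 1 array was left out. Within the slide rows, each with a single array in 1 arm, it was -0.40 ± 0.19 in row 1 and -0.37 ± 0.21 in row 2 (SE, limma adjusted p 0.642 and 1.0). With slide row as a block it was -0.38 (limma adjusted p = 0.204). It passed with array weights (-0.351, adjusted p = 0.0295) and with normexp background correction (-0.385, adjusted p = 0.0393), and in 21 of the 23 alternatives it did not. The 8 contractile smooth muscle markers, whose cells carry this receptor, were at mean levels of -0.20 to 0.05 in Fto -/- and 0.02 to 0.30 in Fto +/+ samples, and their median log2 difference was -0.22 with 0 of 8 passing. The summed smooth muscle signal was 2520 to 2870 times the 75th percentile in Fto -/- and 2540 to 3250 times in Fto +/+ arrays. Its part in the Tbxa2r difference was not tested.

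**Figure D4:**
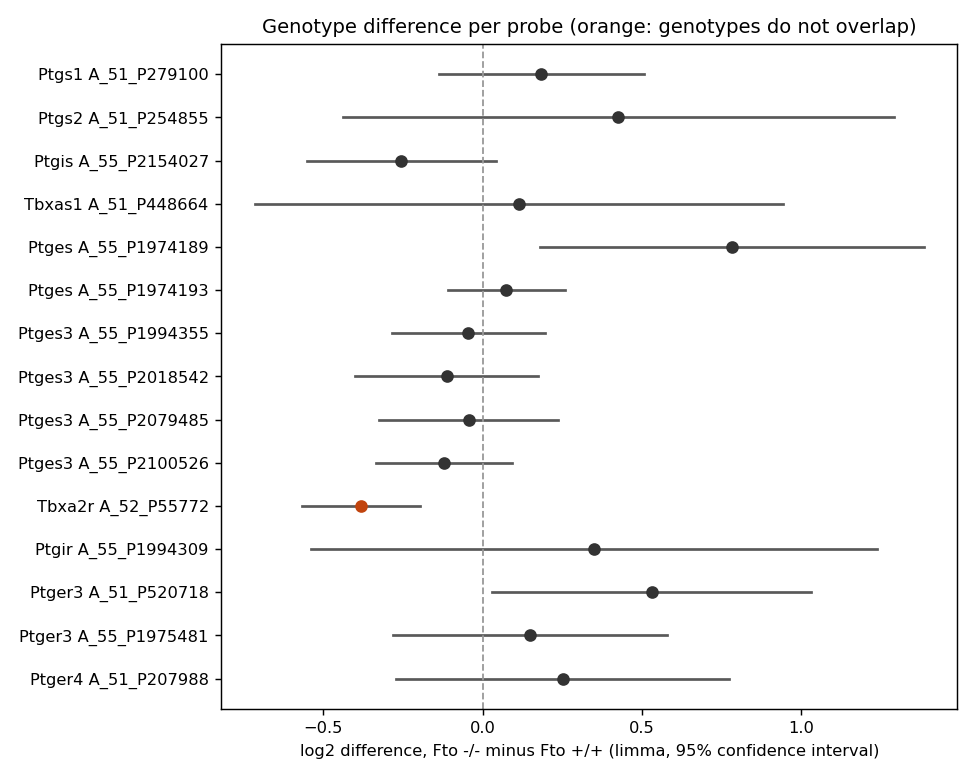
Log2 difference of each probe, Fto -/- minus Fto +/+ (points, limma over all 25288 tested probes), with its 95% confidence interval (lines) and the dashed line at no difference. The intervals of Tbxa2r (below 0), the dim Ptges probe and 1 Ptger3 probe (above 0) leave out 0 before adjustment, and 0 of the 15 passed after it.

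Ptgir (A_55_P1994309, NM_008967) encodes the prostacyclin receptor, which raises cyclic AMP and relaxes smooth muscle. It was at -0.33, -1.47, 0.01 and -0.03 in Fto -/- and at -0.36, -1.48, -1.15 and -0.24 in Fto +/+ samples. The lowest sample of each genotype was replicate 2, and the genotypes overlapped. Ptgir differed by 0.35 ± 0.39 (SE, 95% confidence interval -0.54 to 1.24, limma adjusted p = 0.657), so that levels from 0.689-fold to 2.36-fold lay within the interval. It was 0.69 without Fto -/- replicate 2 and 0.13 without Fto +/+ replicate 2. Within slide row 1 it was -0.24 ± 0.59 and within row 2 it was 0.92 ± 0.52 (SE), with a single array in 1 arm of each, and with the white adipocyte level in the fit it was 0.155. Only the change between genotypes in a ratio of 2 probes can be read, not the ratio itself. The log2 ratio of Tbxa2r to Ptgir within an array differed by a mean of -0.73, Fto -/- minus Fto +/+, with SDs of 0.68 and 0.57 (n = 4 each) and overlapping genotypes. For Ptgis to Tbxas1, the opposing synthases, the change was -0.37, with SDs of 0.78 in Fto -/- and 0.72 in Fto +/+ samples (n = 4 each), again with overlap.

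Ptger3 and Ptger4 encode the PGE2 receptors EP3, which lowers cyclic AMP, and EP4, which raises it. The brighter Ptger3 probe (A_51_P520718, NM_011196) was at -2.49, -2.07, -1.82 and -1.69 in Fto -/- and at -2.49, -2.47, -2.20 and -3.04 in Fto +/+ samples. It was well above background on all 4 Fto -/- and 3 of the 4 Fto +/+ arrays. Of the Fto -/- samples, 3 lay above all Fto +/+ samples, and the log2 difference was 0.53 ± 0.22 (SE, 95% confidence interval 0.03 to 1.03, limma adjusted p = 0.24). The second Ptger3 probe (A_55_P1975481, same transcript) was at -2.89, -2.94, -2.65 and -3.35 in Fto -/- and at -2.81, -2.92, -3.44 and -3.26 in Fto +/+ samples, and was well above background on 3 and 1 of the arrays in the same order. Its log2 difference was 0.15 ± 0.19 (SE, limma adjusted p = 0.702). Fto -/- replicate 4 was the highest of its genotype with the brighter probe and the lowest with the second.

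Ptger3 is known from adipocytes, and adipocyte markers differed between the samples. The mean level of the 7 brown adipocyte genes measured of 8 was 0.48, -0.25, 1.62 and 1.19 in Fto -/- and -1.22, -1.52, -0.07 and -0.23 in Fto +/+ samples, and 0 of 7 passed. The summed brown adipocyte signal was 92.7 to 475 times the 75th percentile in Fto -/- and 33.7 to 97.3 times in Fto +/+ arrays. The 2 arrays with the most brown adipocyte signal, Fto -/- replicates 3 and 4, were the highest for the brighter Ptger3 probe. Other arrays did not follow that order. Fto -/- replicate 1, next in brown adipocyte level at 0.48, was the lowest of its genotype for this probe, at -2.49. Fto +/+ replicate 4, at a brown adipocyte level of -0.23, was the lowest of all at -3.04, below replicate 2 at -2.47. The white adipocyte list, with 7 of 8 genes measured and Lep not well above background on any array, was at -0.26 to 1.03 in Fto -/- and -1.49 to 0.77 in Fto +/+ samples, with summed signals of 137 to 392 and 48.6 to 360 times the 75th percentile. With the white adipocyte level as a covariate the Ptger3 difference was 0.45 (limma adjusted p = 0.434), and with normexp background correction it was 0.25 (limma adjusted p = 0.295). The part of brown adipocytes in it was not tested.

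Ptger4 (A_51_P207988, NM_008965) was at -1.94, -2.60, -2.27 and -1.94 in Fto -/- and at -3.03, -2.27, -2.38 and -2.08 in Fto +/+ samples. The genotypes overlapped, and the lowest value was that of Fto +/+ replicate 1. Ptger4 differed by 0.25 ± 0.23 (SE, 95% confidence interval -0.27 to 0.77, limma adjusted p = 0.581). Without Fto +/+ replicate 1 it was 0.055, with the T cell level in the fit 0.068, and with slide row as a block 0.53 (limma adjusted p = 0.317).

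For each member the genes of most similar profile were found as those with the smallest root-mean-square difference in centred log2 level over the 8 arrays, among 13039 other named genes. Those of Tbxas1 were Nckap1l (0.0956), Nrros (0.132) and Adgre1 (0.148), of which Adgre1 is on the macrophage marker list. The median over all candidates was 0.553 for Tbxas1. Those of Tbxa2r were Paf1 (0.0575), Dxo (0.0579) and Zfp319 (0.0611), against a median of 0.261. Those of Ptgis were Lzts2 (0.0437), Irf2bpl (0.0593) and Dlgap4 (0.0599). For Ptgir the nearest, Slc22a6, was at 0.253. The nearest gene was Iba57 (0.0466) for Ptgs1, Megf6 (0.0639) for Ptger4 and A830052D11Rik (0.129) for Ptger3. These distances describe 8 arrays and carry no test.

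Genes up and down the pathway were read from 4 further lists. Of the 13 genes of arachidonate release, 9 were tested, 1 was higher, 0 were lower and 8 did not pass, where 1.8% of all named genes tested passed in either direction. The median log2 difference was 0.10, against -0.04 over the 13050 named genes tested. The gene that passed was Pla2g2e, a secreted phospholipase A2. It was at -1.72, -2.47, -2.21 and -1.72 in Fto -/- and at -3.37, -3.04, -2.94 and -3.25 in Fto +/+ samples, where no array measured it well above background. The fit gave a 2.17-fold level in Fto -/- samples (95% confidence interval 1.6 to 2.94, limma adjusted p = 0.0318). With each Fto +/+ array set at its dimmest well-measured probe, or at the Pla2g2e value where that was higher, it was 2.15-fold. That value is not a lower limit, since smaller differences lay within the interval. Pla2g2e entered the test only through the Fto -/- arrays. With no filter on dim probes the limma adjusted p was 0.0916, and with normexp background correction the log2 difference was 0.50 (limma adjusted p = 0.0421). The other Pla2g2e probe was below that mark on all 8 arrays. Pla2g2e lost its call in 13 alternatives, among them the unfiltered one and those without Fto -/- replicate 1, 3 or 4 or Fto +/+ replicate 1, 2 or 3. Pla2g4a, the cytosolic phospholipase A2 that feeds cyclooxygenases in many cells, differed by -0.07 (limma adjusted p = 0.876).

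Of the 11 other prostanoid synthase and receptor genes, 7 were tested, 1 was higher, 0 were lower and 6 did not pass (median 0.33). The share that passed over all named genes tested was 1.8%. The gene of this list that passed was Ptgds, the lipocalin-type synthase of prostaglandin D2. It was at -1.03, -0.33, -0.64 and -1.14 in Fto -/- and -2.75, -2.74, -2.82 and -3.56 in Fto +/+ samples, with 3 of the 4 Fto +/+ arrays well above background. Its log2 difference was 2.18 ± 0.24 (SE, limma adjusted p = 0.00843), and 1.23 with normexp background correction (limma adjusted p = 0.00449). For Ptger2, Ptgdr, Ptgdr2 and Hpgds 0 of 8 arrays were well above background. Of the 9 transport and breakdown genes, 8 were tested and 0 passed (median 0.13). An unadjusted limma p under 0.05 was found for 3 of them, and for 20.7% of all named genes tested. The 2 of smallest p were the steroid and prostaglandin reductase gene Akr1c18, which differed by 1.06, and Ptgr2, which inactivates a PGE2 metabolite and differed by 0.39 (limma adjusted p 0.174 and 0.194). The other Ptgr2 probes differed by 0.17 and 0.67. Without Fto +/+ replicate 4 the Akr1c18 difference was 0.67.

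Of the 29 receptor coupling genes, 26 were tested and 0 passed (9 at an unadjusted limma p under 0.05, as were 20.7% of all named genes tested). The median log2 difference was -0.14, with 9 above 0 and 17 below. The 2 of smallest p were Arrb2 and Plcb3. Arrb2 encodes beta-arrestin 2 and differed by -0.61 (limma adjusted p = 0.0818). Plcb3 encodes a phospholipase C that Gq-coupled receptors activate, and differed by -0.38 (limma adjusted p = 0.0992). Arrb2 was at -0.63, -0.87, -0.72 and -0.61 in Fto -/- and 0.20, -0.30, 0.07 and -0.37 in Fto +/+ samples, with no overlap between genotypes. Plcb3 was at 2.81, 2.98, 2.61 and 2.81 in Fto -/- and 3.15, 3.18, 3.13 and 3.27 in Fto +/+ samples, also with no overlap. Of all tested probes, 7.36% were lower in every Fto -/- sample, and these 2 genes were picked for their small p. Arrb2 passed in 3 alternatives (array weights, the macrophage covariate and without Fto +/+ replicate 4, limma adjusted p 0.0213, 0.0311 and 0.0448) and Plcb3 in 1 (array weights, 0.0379). The subunit genes Gnaq and Gna13, which couple the thromboxane receptor, differed by -0.22 and -0.25 (limma adjusted p 0.184 and 0.272).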

How the data were processed

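The authors hybridised Cy3-labelled RNA of each sample to 1 mouse expression array, per the labels' protocols. The deposited scanner files hold intensity per spot, background-subtracted by Agilent Feature Extraction 11.0.1.1 with no scaling between arrays, per the file headers. The array annotation build named there is mm9. The deposited series table holds log2 values; set against the scanner values, its columns had slopes of 0.958 to 1.006 and its probes a median of 0 over the 8 arrays, and its normalisation method is unknown here. Column medians ran from -0.0095 to 0.0049.

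Outlier spots, 126 to 189 an array, were left out and spots of a probe averaged. Levels are log2 of intensity over the 75th percentile of the array's non-control spots. Probes were named through RefSeq accessions (28331 of 55681, 50.9%, GRCm38.p6 table), and tested where well above background on at least 4 of 8 arrays. Genotypes were compared with limma 3.58.1 in R 4.3.3, with p-values adjusted by Benjamini-Hochberg across every tested probe, at a threshold of 0.05, and the fit was tested on simulated data. A gene's probe of highest mean stood for it in lists. The number of arrays limits precision, and the labels do not say that samples came from separate animals, so the p-values cover only sample-to-sample spread, which may be technical. All arrays lay on 1 slide with 1 scan time, in 2 rows; Fto +/+ replicate 1 shared row 1 with Fto -/- replicates 1 to 3.

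Named are all member probes, Fto, of each other pathway list the genes past the threshold or else the 2 of smallest p, and the genes of nearest profile, of which 1 result is not reported here. Genes named beyond this (Pla2g4a, Gnaq, Gna13, genes below background) were picked after their values were seen. The members and lists were chosen with earlier results of these data known. Alternatives covered scaling, background correction, filters, blocks, covariates and each array left out.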

Additional observations from a re-analysis of the deposited data

Results flagged for a closer look

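In 3 of the 30 sets of 4 samples (15 probes in 2 genotypes), 1 sample stood apart from the other 3. The gap to its nearest neighbour was 0.84 to 0.852 of the range of the set. The nominal chance rate of about 1 in 20 is for independent sets, and probes of 1 gene on the same arrays are not independent. The share over all tested probes is not given here. Ptgs1 in Fto +/+ replicate 1 was at 2.21, with the others between 2.67 and 2.76. One Ptges3 probe (A_55_P2018542) in Fto -/- replicate 2 was at 2.49, with the others between 2.05 and 2.12. Another Ptges3 probe (A_55_P2079485) in Fto +/+ replicate 2 was at 3.82, with the others between 3.92 and 3.94.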

How the results depend on the processing

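The 15 member probes were recomputed in 23 alternatives, 342 values in all. Of these, 319 kept direction and side of the threshold, 2 passed it (Tbxa2r, with array weights and with normexp) and 21 changed sign, reaching at most 0.244 in size, with adjusted p of at least 0.333. The count of members lower was 1 with array weights and 1 with normexp, against 0. Sign changes fell on 6 probes. With the T cell covariate Ptgs2 was -0.016, Tbxas1 -0.047, and Ptges3 0.003 (A_55_P1994355) and 0.081 (A_55_P2079485). With the macrophage covariate Tbxas1 was -0.244 and Ptges3 0.012 (A_55_P2079485), and with the white adipocyte covariate Ptges3 was 0.006 (A_55_P1994355). The same 2 Ptges3 probes, in that order, were at 0.015 and 0.015 with the 75th percentile over probes well above background on all arrays, 0.006 and 0.004 with quantile normalisation, and 0.004 and 0.003 in the series table. Within slide row 1 Tbxas1 was -0.211, Ptgir -0.239 and Ptger3 (A_55_P1975481) -0.022; that Ptger3 probe was -0.145 within row 2 and -0.083 with row as a block. Over the fits without 1 array Tbxas1 ran from -0.157 to 0.371 and Ptges3 (A_55_P2079485) from -0.155 to 0.017. The causes were not tested.

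Over all probes, limma called 213 higher and 206 lower. They were 273 and 153 with the 75th percentile over probes well above background on all arrays. The counts were 61 and 35 with no filter on dim probes, where more probes are tested, 33 and 13 with slide row as a block, 777 and 847 with array weights, 84 and 55 with the white adipocyte, 76 and 53 with the T cell and 531 and 408 with the macrophage covariate. They were 55 to 499 and 46 to 387 without 1 array, the highest without Fto +/+ replicate 4 and the lowest without Fto -/- replicate 4. Within row 1 they were 0 and 0 (before adjustment 1298 and 812 passed 0.05) and within row 2 they were 1 and 0 (792 and 599). Fto was at -3.02 within row 1 and -3.33 within row 2 (adjusted p 0.154 and 0.32). Pla2g2e lost its call in 13 of the alternatives and Ptgds in 2. Deviations of same-numbered samples from their genotype means had correlations of 0.155, -0.0234, -0.0188 and -0.0406 for replicates 1 to 4. Over all pairs of Fto -/- and Fto +/+ samples the correlations ran from -0.3145 to 0.1863. These values cannot settle whether the numbers pair samples, and this is unknown here. With the replicate block 90 probes were higher and 42 lower, and Tbxa2r was -0.38 (limma adjusted p = 0.159). The SE with and without that block was 0.219 and 0.39 for Ptgir, and 0.098 and 0.081 for Tbxa2r. The normexp fit on the mean signal was not run, since the scanner files used here have the median signal only. Dim probes (the second Ptger3 probe, the dim Ptges probe) lie near background, which limits their differences.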
